A study of Mus musculus with 3 samples.

Results

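The comparison set the Dmpk;Six5;Mbnl1-KO line, labelled DSM, against its parental line, labelled O48, at exonic positions that the deposited variant table lists with a single reference and a single alternate base. These were 2 of the 3 sequenced lines of the series, and 10881 of the 11544 single-base positions had at least 10 reads in both lines and were compared. Both lines are androgenetic haploid embryonic stem cells of the C57BL/6 strain, grown in 2i/Lif medium, which means embryo-derived cells whose genome is of paternal origin only. O48 was sampled at passage 40 and was the unedited reference of the gene edits, although it already lacks the differentially methylated regions of H19 and of the IG locus, so DSM lacks them too. DSM was sampled at passage 60, and it was made by disrupting Six5 and Mbnl1 with CRISPR-Cas9 in a clonal O48 derivative whose Dmpk had been mutated before. DSM is therefore 1 clone that passed through several single-cell steps, and passage, clone and edited genotype cannot be told apart in this pair. There was 1 library a line, so every interval and every test below covers counting error of the reads only and compares those libraries, not the genotypes.

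In myotonic dystrophy type 1 a CTG repeat in the 3′ UTR of DMPK, which encodes a protein kinase, expands. The neighbouring SIX5, a homeobox gene, and MBNL1, whose splicing factor is held by the repeat RNA, are the other genes whose dosage the edited cells were built to lower. In a haploid cell each autosomal base exists in 1 copy, so a base change carried by all cells of a clone is read in all of its reads. Reads from near-identical gene copies, from repeats or from a minority of cells, among other sources, can give intermediate shares instead.

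The alternate share, the percentage of reads with the alternate base, was nearly the same in both lines at most positions. The median change from O48 to DSM was 0 percentage points, with quartiles of -1.87 and 2.25, and 8072 sites (74.2%) changed by at most 10 points. A share of at most 10% is called absent here, a share of at least 90% fixed, and anything between mixed. By these classes 4104 sites were fixed in both lines, and in 3833 of them every read of both lines held the alternate base. Of the sites fixed in both, 3220 (78.5%) lay on chromosomes 2, 3, 4 and 11. A further 3650 sites were mixed in both lines, with a median absolute change of 5.06 points. Sites absent in one line and mixed in the other were about equally many in both directions, with 1127 mixed in DSM and 1123 mixed in O48. From mixed to fixed went 41 sites, of which 3 were called, and from fixed to mixed 21, of which 0 were. From absent in O48 to fixed in DSM went 23 sites, 0.211% of those compared, and 0 went the other way.

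The two-sided Fisher's exact test of reference and alternate reads, adjusted by Benjamini-Hochberg over all sites, called 440 sites (4.04%) in 211 genes. The share rose in DSM at 241 of them (2.21%) and fell at 199 (1.83%). None of the sites fixed in both lines was called, and 38 of the 3650 mixed sites were (1.04%). Most calls therefore came from sites where 1 line listed no alternate read at all, and 391 of the 440 were of that kind. Those zeros are not of equal weight. In 263 of the 391 the line with the zero also carried a genotype quality of 0, the deposited score for how sure the genotype call is, in 8 it was between 1 and 19, and in 120 it was at least 20. When the test was repeated on the 8742 sites with a genotype quality of at least 20 in both lines, 107 sites were called (1.22%), 61 of them rises and 46 falls.

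**Figure D1:**
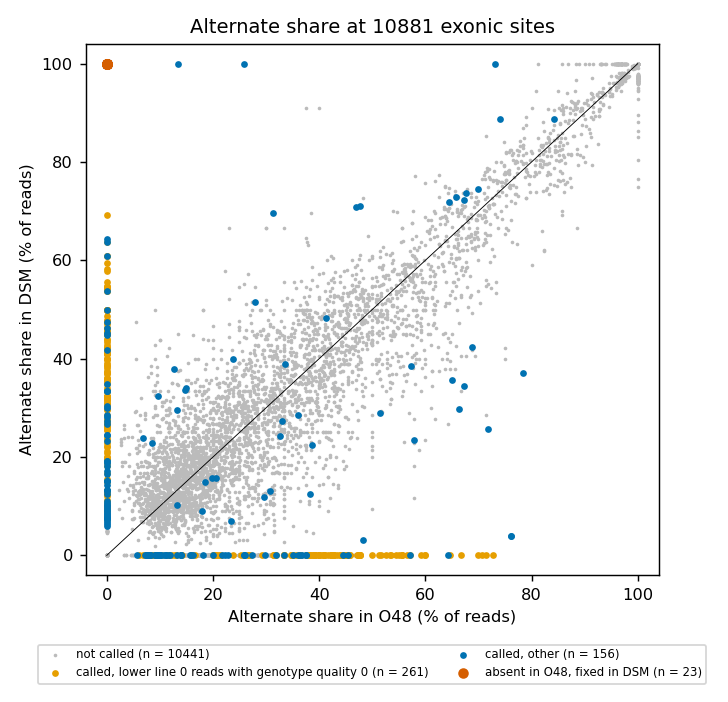
Alternate share in O48 (x axis, % of reads) against DSM (y axis, % of reads) at the 10881 compared sites, each point a site and the line marking equal shares. The 23 sites absent in O48 and fixed in DSM lie on top of each other in the upper left corner, and the 261 other sites called against a zero with genotype quality 0 lie on the 2 axes.

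The 23 sites that DSM alone carried as fixed had the largest change in share. At each of them 0 alternate reads were seen in O48 and all reads were alternate in DSM. Depth at these sites ran from 15 to 43 reads in O48, with a median of 32, and from 10 to 44 in DSM, with a median of 29. A zero at these depths allows an O48 share of up to 6.98% at the deepest site and 20% at the shallowest (3 reads of the depth). The sites lay in 22 genes on 14 chromosomes, none of them was deeper than 64 reads in either line, and 19 had no other listed site within 100 bases. They comprised 9 non-synonymous changes, 2 gained stop codons, 1 splice donor, 4 synonymous changes and 7 changes in 3′ UTRs. Of the 23, 9 were transitions (39.1%), against 2919 of the 4104 sites fixed in both lines (71.1%). The adjusted p-values of Fisher's exact test ran from 1.47e-19 at Vmn1r1 to 3.50e-05 at the gene model id232769.

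The reference sequence at the sites in coding exons that changed a residue, and at the splice donor, is shown because these are the places where DSM differs from O48 in every read. Each line gives GRCm38.p6 on the plus strand, 5′ to 3′, with the changed base in capitals in the middle.
Tns1 chr1:73941973-73942001: gacgggggagcggaCcccaggactacggg
Ttll4 chr1:74672998-74673026: agacttcacacaagTaatgcatggttttg
Vmn1r1 chr1:182157691-182157719: aaagcagcacaagtTgtgccagagggagt
Cd300ld chr11:114986127-114986155: gctctgagtcacttGttccttgccagtgt
Rgs22 chr15:36015733-36015761: gtggccaaaacttaAacagaaccccaaaa
Gm7168 chr17:13949565-13949593: ggcaaagagcaggcAgaagatccagtggg
Cntnap2 chr6:46234237-46234265: ccagcttgtgaattTatacgaagtagcac
1600015I10Rik chr6:48931626-48931654: tacattaccgcattGacctggatgtagca
Ncan chr8:70115331-70115359: ctgaccctgacttcAgcatgcgaagcccc
No run of 8 or more of the alternate base lay within 20 bases of any of the 23 sites. Only runs of a single base were counted, and repeats of longer units were not. The window of id232769 G116935716A, not printed above, is a tandem repeat of gata.

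A substitution is written with the reference base, its GRCm38 position and the alternate base on the plus strand, and the listed residue change follows in parentheses. Among the residue changes, Ncan, which encodes the brain proteoglycan neurocan, carried A70115345T in exon 3 (L39Q), with 0 of 38 reads in O48 and 28 of 28 in DSM. Cntnap2, a cell adhesion protein of the neurexin family, carried T46234251C in exon 10 (L533S), with 0 of 38 reads in O48 and 23 of 23 in DSM. Tns1, the focal adhesion protein tensin, carried C73941987T in exon 20 (V1073I), with 0 of 26 reads against 25 of 25. These 3 sites had genotype qualities of at least 69 in both lines, and the next listed site was at least 69434 bases away. Rgs22, a regulator of G protein signalling, had 0 of 24 and 27 of 27 reads at A36015747T in exon 23 (F1121Y). The vomeronasal receptor gene Vmn1r1 had 0 of 37 and 39 of 39 reads at T182157705G (N132H). At 1600015I10Rik, which RefSeq calls Doxl1, the counts were 0 of 32 and 40 of 40 at G48931640T (D525Y). At Cd300ld, an immune receptor of myeloid cells, G114986141T (Q155K) went from 0 of 43 reads to 29 of 29, but the O48 genotype there had quality 0.

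Gm7168 was the only gene with 2 of these sites, and they were neighbouring bases. C13949578G was synonymous (G402), with 0 of 30 reads in O48 and 37 of 37 in DSM, and A13949579T made a stop of the next codon (R403*), with 0 of 30 and 38 of 38. Both bases can be read on the same fragments, so they count as 1 event. The splice donor T74673012C lay in the intron after exon 2 of Ttll4, a tubulin polyglutamylase, with 0 of 24 reads in O48 and 34 of 34 in DSM. The remaining listed stop, G124129942T (C5*, 0 of 21 and 25 of 25 reads), belongs to a gene model named id34949, and RefSeq places the base in the non-coding part of an exon of 4930517E11Rik and Sema6d. The remaining 2 residue changes rest on such models only: A95824604C of id243218 (I196S, 0 of 39 and 30 of 30 reads) lies in the non-coding part of an exon of Ano6 and Gm17546, and G116935716A of id232769 (R278K, 0 of 15 and 10 of 10 reads) lies in an intron of Gpc6, 8 bases from the next listed site.

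The synonymous and untranslated sites had the same all-or-none reads. Ror1, a receptor tyrosine kinase-like protein, had 0 of 29 and 34 of 34 reads at C100333648A (I67). Fer1l6 had 0 of 36 and 29 of 29 at T58558352C (G219). On the X chromosome Klhl4 had 0 of 36 and 39 of 39 at A114549543C (V376). The 3′ UTR sites were in Cdk17 (0 of 29 and 26 of 26), Il5, the eosinophil cytokine (0 of 41 and 34 of 34), Wars2, the mitochondrial tryptophanyl-tRNA synthetase (0 of 27 and 26 of 26), and Stk38l (0 of 35 and 32 of 32). They were also in the X-linked Mmgt1 (0 of 32 and 44 of 44), in Mrgpra6 (0 of 36 and 17 of 17) and in Cmklr1, the chemerin receptor (0 of 30 and 26 of 26), where the O48 genotype again had quality 0. The other 21 of the 23 had an O48 genotype quality of at least 43.

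At 2 more single sites DSM was fixed while O48 already held the base in a minority of reads. Rbfox3, a neuronal splicing factor, had 6 of 45 reads in O48 (13.3%) and 31 of 31 in DSM at C118496423A, a synonymous site of exon 12 (A288), with an adjusted p of 3.77e-13 by Fisher's exact test. Rnf112, a RING finger protein of the nervous system, had 8 of 31 (25.8%) and 34 of 34 at G61450854T in exon 10 (Q350K), with an adjusted p of 7.00e-09. Both lie on chromosome 11, and neither has another listed site within 100 bases. The olfactory receptor gene Olfr1061 was called too, at 30 of 41 reads in O48 and 29 of 29 in DSM (L71H, adjusted p = 0.0475 by Fisher's exact test), 14 bases from the next listed site. That call was lost when only sites with quality of at least 20 in both lines were tested (adjusted p = 0.102 by the same exact test).

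**Figure D2:**
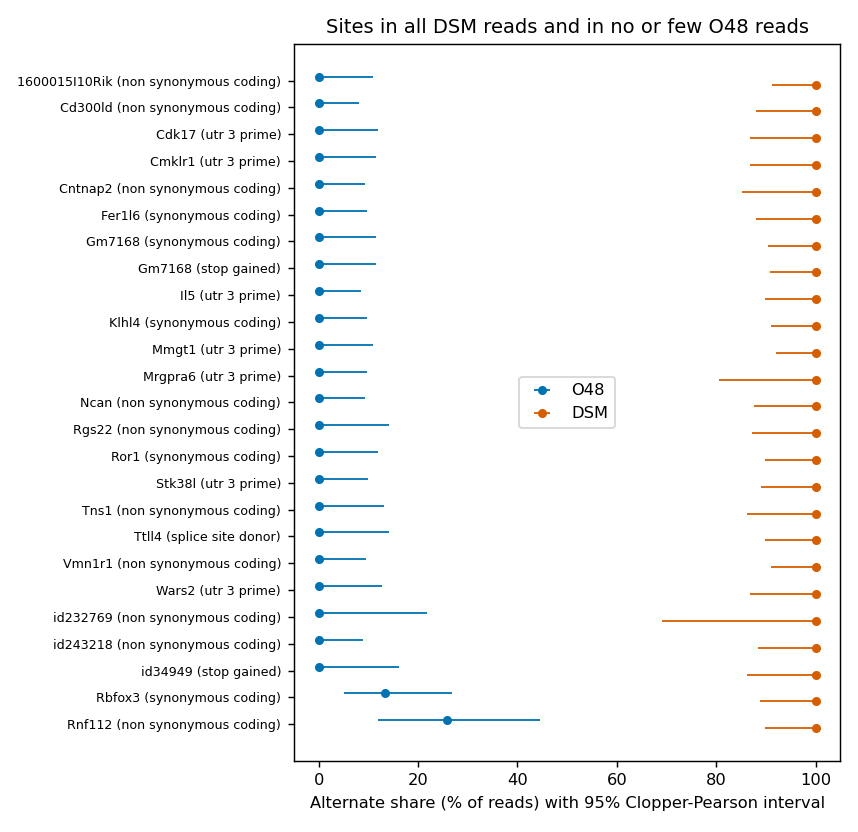
Alternate share (x axis, % of reads) in O48 and DSM with exact 95% Clopper-Pearson intervals at the 23 sites absent in O48 and fixed in DSM and, below them, at Rbfox3 and Rnf112, each row a site with its gene and annotation. No interval of O48 overlaps that of DSM in any row, which follows from choosing the rows by these same reads and is no separate support.

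A further group of differences was mixed in DSM. Among the 440 calls, 167 had a genotype quality of at least 20 in both lines, and 34 of these were single sites, with at most 64 reads in either line and no other listed site within 100 bases. In all, 2225 compared sites met these limits, called or not, and 1860 of them were fixed in both lines. Rises made up 29 of the 34 and falls 5, and 17 of the rises are sites of the fixed group above. In 10 rises DSM was mixed. Tlr7, the X-linked RNA sensor, had 0 of 30 reads in O48 and 19 of 41 in DSM (46.3%) at G167306270T (T740K, adjusted p = 0.000348 by Fisher's exact test). Gpr171, an orphan G protein-coupled receptor, had 0 of 38 and 10 of 20 reads (50%) in its 3′ UTR (adjusted p = 0.000318 by Fisher's exact test). Top2b, a DNA topoisomerase, had 0 of 29 and 12 of 36 (33.3%) at A16406734T (L625F), and Syne1, a nuclear envelope protein, 0 of 24 and 15 of 36. The 6 others were Vmn2r98 (13 of 29), id112784 (7 of 13), Srcap (9 of 14), Atg14 (8 of 28), Uroc1 (9 of 32) and Rex2 (6 of 32), all with 0 reads in O48, at 10 to 54 reads. The 5 falls were Thoc2 (9 of 14 reads in O48 and 0 of 17 in DSM), id255114 (15 of 45 and 0 of 34), Treml2 (9 of 25 and 0 of 24), Gm9573 (6 of 16 and 0 of 26) and Rab11fip1 (7 of 20 and 0 of 28). Thoc2 and Srcap lie beside runs of 12 and 16 of the alternate base. When only the 8742 sites with good quality in both lines were tested, the 19 single sites fixed in DSM all stayed called, as did 7 of the 10 mixed rises and 2 of the 5 falls. Lost were Top2b (adjusted p = 0.0508), Rex2, Srcap, Gm9573, Treml2 and Rab11fip1, the last 5 at adjusted p-values of 0.0713 to 0.106 by Fisher's exact test. Srcap was also lost under 5 other settings.

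Among the falls outside these single sites, Thap1, a zinc finger transcription factor, was called in 1 direction only. All 7 of its called sites fell, out of 47 compared, and 6 of the 7 had a genotype quality of at least 20 in both lines and stayed called when only such sites were tested. Over all 47 sites the changes ran from -72.1 to 12.5 points. At T26158472C (Y8H) and C26158474A (Y8*), which are 2 bases apart, 35 of 46 reads in O48 (76.1%) and 1 of 25 in DSM (4%) held the alternate base, with an adjusted p of 2.47e-07 by Fisher's exact test at each. At C26162498G (A111G) the counts were 29 of 60 and 1 of 32, and in the 5′ UTR 40 of 51 and 13 of 35. P102A fell from 18 of 49 to 0 of 35 and L99 from 14 of 44 to 0 of 40. At G26158469T (A7S), 3 bases before Y8H, the counts were 21 of 46 and 0 of 74 with quality 0 in DSM, so the listed depth of the DSM library changed from 74 to 25 reads within those bases. Mex3c, an RNA-binding protein on chromosome 18, had 4 called falls, 3 of which stayed called in the restricted test, in its 3′ UTR, from between 65% and 68.9% of reads in O48 to between 29.8% and 42.4% in DSM, and its summed depth ratio was 0.744. Eef2, the translocation factor of protein synthesis, fell from 74 of 103 to 9 of 35 at a synonymous site of codon 170 (E170).

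Effects on stop codons and splice sites outside the fixed group were listed for few genes. Muc4, a membrane mucin with a repeated coding region, had 7 calls out of 135 sites, among them R1588* (0 of 52 reads in O48 and 17 of 41 in DSM), S1615* (0 of 43 and 10 of 48) and the lost stop T32754858A (0 of 52 and 11 of 37). All 7 Muc4 calls were against a zero with genotype quality 0. The gene model id45, which overlaps Lypla1, had 9 rises between positions 4846116 and 4846186 of chromosome 1, from 0 reads of 57 to 64 in O48 to 6 to 12 reads of 33 to 47 in DSM. The sites can be read on the same fragments, and 8 of the 9 zeros had quality 0, with A4846186T, a lost stop, at quality 99. That site in turn lost its call when only sites with quality of at least 20 in both lines were tested (adjusted p = 0.0738 by Fisher's exact test). Vmn2r89 gained S64* at 14 of 57 reads against 0 of 31, with quality 96 in O48, but all 4 calls of this gene were lost in that restricted test (adjusted p = 0.0953 for S64*), and S64* was also lost without the deepest sites (adjusted p = 0.0533, both by Fisher's exact test). A stop at codon 294 of LOC100504180 (Q294*) went from 0 of 433 to 39 of 354 reads, while the neighbouring base, G58224118C, had 0 of 160 and 35 of 349. The splice calls outside Ttll4 were id180072 (0 of 20 and 6 of 11), Obsl1 (0 of 29 and 9 of 29), id64765 (13 of 23 and 0 of 27) and id77606 (11 of 28 and 0 of 22), each with quality 0 in the line at zero. Obsl1 lost its call without the deepest sites (adjusted p = 0.0578) and with one site per 100 bases (adjusted p = 0.0516, both by Fisher's exact test). A lost stop of id77554, A14978205T, went from 11 of 141 reads to 0 of 124, with a genotype quality of 8 in O48. Gained start codons in 5′ UTRs were called at Gm13154 T147553294G (14 of 89 reads and 0 of 128), Gm7609 G85199641T (0 of 94 and 10 of 108), A530032D15Rik T85109531C (50 of 105 and 59 of 83) and Sfi1 G3193443A (102 of 1095 and 0 of 1150). The Sfi1 zero in DSM had genotype quality 0. The Gm7609 and A530032D15Rik starts were lost in the test restricted by quality (adjusted p = 0.102 and 0.0980 by Fisher's exact test).

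The largest rises and falls at sites of mixed share were mostly of that kind. Of the 10 largest rises outside the groups above, one per gene, Nfia had 0 of 13 and 9 of 13 reads, Amz2 0 of 14 and 14 of 23, id298016 0 of 33 and 22 of 37, Cadm3 0 of 16 and 10 of 18, and LOC100861884 0 of 59 and 34 of 62, all with quality 0 in O48. Of the largest falls, Gata3, a transcription factor of T cells and other lineages, had 8 of 11 and 0 of 19 reads in its 3′ UTR, Sept1 10 of 14 and 0 of 23, and Tnrc6b 12 of 17 and 0 of 10, all with quality 0 in DSM. Snn, which encodes stannin, had one of each within its 3′ UTR, a rise from 0 of 12 to 7 of 11 and a fall from 8 of 12 to 0 of 14. The rise was lost in the test restricted by quality (adjusted p = 0.0841 by Fisher's exact test). How much of such a change lies in the recorded genotype was not tested. Of the 263 calls made against a zero with quality 0, 188 had another compared site within 10 bases. In 15 of these 188 (7.98%) a neighbour held at least 20% alternate reads in the line listed at zero, and in the rest none did. At the chloride channel gene Clcn1, G42314364C went from 9 of 26 reads to 0 of 35, while A42314367C, 3 bases away, went from 9 of 26 to 11 of 34.

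Part of the calls lay beside a run of the alternate base itself. A run of at least 8 alternate bases within 20 bases was found at 29 of the 199 falls (14.6%) and 19 of the 241 rises (7.88%), against 599 of all 10881 sites (5.51%) and 22 of the 4104 sites fixed in both lines (0.536%). None of these 48 sites lay in a window that RefSeq annotates as coding throughout. Among the 167 calls with genotype quality of at least 20 in both lines, 5 (2.99%) had such a run, a share below that of all sites. The 2 coding calls that follow, each a synonymous change to C in a proline codon beside a shorter run of 5 C, are shown in the same form as above because of their C-rich surroundings.
Apbb1ip chr2:22875127-22875155: ccacccccgccaccAcccccgccctgtct
Mll5 chr5:23502328-23502356: gtggtcccgcccccGcccccacccccgcc
Apbb1ip rose from 0 of 17 to 6 of 12 reads (P611) and Mll5 from 0 of 18 to 11 of 23 (P1634). In both, the O48 zero had genotype quality 0.

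Of the edited genes, Dmpk alone had listed sites. Dmpk lies at chr7:19083646-19093821, and 5 of its 6 listed positions were compared, all in the 3′ UTR. At G19093212C the reads went from 0 of 25 in O48 to 12 of 26 in DSM (46.2%, adjusted p = 0.00528 by Fisher's exact test). At T19093214C they went from 0 of 25 to 11 of 26, and at G19093217C and T19093219C from 0 of 25 to 10 of 25. The 4 called sites span 8 bases, lie beside runs of 10 to 16 C and share their reads, and the O48 genotype had quality 0 at each. The fifth site, A19093246C, had 0 of 17 and 0 of 21 reads. Six5 (chr7:19094544-19098549), Mbnl1 (chr3:60472559-60629750) and Dmwd (chr7:19076112-19082778), which was not targeted in DSM, had 0 listed sites, and insertions and deletions, the usual product of Cas9 cutting, were not analysed here. Depth over the 37 sites within 2.5 Mb of Dmpk had a ratio of 1.01, whose interval of 0.913 to 1.12 includes 1.

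Lists of genes that matter in these cells held few positions. Of 24 pluripotency genes only Lifr, the receptor of the Lif in the medium, had sites, and 0 of its 10 were called. Of 18 genes of the p53 pathway and cell cycle checkpoints 5 had 14 sites, of which 1 in the 3′ UTR of Cdkn2a, the Ink4a/Arf tumour suppressor gene, was called, from 10 of 25 reads in O48 to 0 of 20 in DSM with quality 0. The 5 sites of Pmaip1, a p53 target that promotes cell death, were fixed in both lines. Of 35 DNA repair genes Rad50 and Ung had 6 sites and 0 calls, and of 24 imprinted genes Peg10 had 1 site and 0 calls. Of 15 other genes tied to myotonic dystrophy, Celf1, Clcn1 and Insr had 9 sites and 2 calls, Clcn1 (above) and Insr, the insulin receptor, from 0 of 20 to 10 of 22 reads with quality 0 in O48. The 5 Celf1 sites were fixed in both lines. All calls in these lists were against a zero with genotype quality 0, and against 4.04% of all sites their counts are too small to be read as a rate.

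Deep sites made up much of the well-genotyped calls. Where a gene has near-identical copies a read cannot be assigned to 1 copy with certainty, so values of such genes are uncertain, and copy number was not measured here. Of the 167 calls with quality of at least 20 in both lines, 98 had over 64 reads in a line (58.7%). Over all compared sites, of any genotype quality, 2552 did (23.5%). More reads let a smaller change be called, so the 2 shares do not show that deep sites change more. Rn45s, the ribosomal RNA precursor, had 15 calls out of 56 sites at median depths of 2383 and 2469 reads, 8 rises and 7 falls, none larger than 9.2 points. Sfi1, a centrosome gene, had the fall above and 3 rises from 0 of 823 to 1189 reads in O48 to between 7.63% and 8.24% in DSM. Sp110, an interferon-induced nuclear body gene, had 10 rises and 3 falls, and 11 of the 13 were against a zero with quality 0. In Gm13035, on chromosome 4, 4 sites within a short stretch fell from between 13.3% and 16.3% to 0 of 101 to 105 reads, and in LOC670059 5 sites rose, by 18.9 to 25.2 points, all of them lost in the test restricted by quality (lowest adjusted p = 0.0867 by Fisher's exact test). Lars2, the mitochondrial leucyl-tRNA synthetase, had 0 of 605 and 57 of 343 reads at a 3′ UTR site with quality 99 in both lines. The mitochondrial gene ND6 had 1089 of 3025 reads in O48 (36%) and 988 of 3468 in DSM (28.5%) at G13836A (P79S). Against 4.04% of all sites (2.21% rises and 1.83% falls), the gene families gave shares mostly close to it. The 509 sites of the Vmn2r vomeronasal receptors had 13 rises and 5 falls (3.54%), the 1090 sites of genes named Gm 15 and 23 (3.49%) and the 273 of the Zfp genes 8 and 7 (5.49%). The 490 sites of the olfactory receptor genes had 1 of each (0.408%). Many of these genes lie on chromosome 2 from 85 to 90 Mb, where 400 of the 440 compared sites were fixed in both lines. No site fixed in both lines was called, and how far this sets the share of the family was not tested. The 165 Muc sites had 6 rises and 2 falls (4.85%) and the 29 Vmn1r sites 1 rise, the Vmn1r1 site above. In all, 54 genes had at least 3 calls, and together they held 243 of the 440. In 36 of the 54 the calls were all of 1 direction. Calls a few bases apart can share their reads and are then not separate events. The 3 calls of Amz2, for example, lay between positions 109437250 and 109437252.

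By annotation, calls were similarly frequent in most classes. They made up 165 of 3719 non-synonymous sites (4.44%, exact 95% interval 3.80 to 5.15), 73 of 2559 synonymous sites (2.85%, 2.24 to 3.57), 152 of 3530 sites in 3′ UTRs (4.31%, 3.66 to 5.03) and 25 of 668 in 5′ UTRs (3.74%, 2.44 to 5.48). The synonymous share was the lowest of these. Among the small classes, 8 of 127 gained stops (6.30%, 2.76 to 12), 5 of 67 lost stops, 3 of 37 splice donors and 2 of 25 splice acceptors were called. The intervals treat sites as independent, which neighbouring sites are not, and 371 of the 440 calls (84.3%) had another listed site within 100 bases, against 75.3% of all sites. With genotype quality of at least 20 in both lines the shares were 1.55% of non-synonymous sites, 0.995% of synonymous sites and 0.931% of sites in 3′ UTRs. Depth ratios by annotation stayed between 0.970 in 5′ UTRs and 1.03 at synonymous sites for these 4 classes.

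Read depth was even between the libraries. The compared sites summed to 814568 reads in O48 and 826947 in DSM, with medians of 33 and 34. Ratios over all compared sites are divided by the ratio of these sums (1.02). Ratios at sites fixed in both lines are divided by the ratio of the summed reads of those sites alone, so they are on another scale. Over chromosomes 1 to 19 and X the ratio ran from 0.895 on chromosome 15 (95% interval 0.871 to 0.920), 0.905 on chromosome 18 and 0.914 on chromosome 12 to 1.04 on chromosomes 17 and 11, 1.07 on chromosome 9 and 1.07 on chromosome 16 (1.04 to 1.11). The 2 sites listed on the Y chromosome were at 1.22 (1.04 to 1.43), and the single one fixed in both lines was at 1.65 (1.24 to 2.22). These values are not read as dosage of a Y chromosome, because whether these haploid lines carry one was not tested. A doubling of the whole genome would not show in scaled depth. The X chromosome was at 0.958 (0.939 to 0.977). Counting intervals were narrower than the spread of 5 Mb bins in the same chromosome: on chromosome 15 the 6 bins ran from 0.683 to 1.46. At sites fixed in both lines, chromosomes 16 and 18 were at 0.964 and 0.969 on the scale of those sites. The reads there were 552 in O48 and 559 in DSM on chromosome 16, and 8526 and 8678 on chromosome 18. The 3 mitochondrial sites stood at 1.49, and at the ND3 site of these the listed reads were 43 in O48 and 1462 in DSM.

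Of the 153 bins of 5 Mb with at least 10 sites, 16 (10.5%) had a ratio of at most 0.8 or at least its inverse, 8 higher and 8 lower. The lowest was chromosome 15 from 5 to 10 Mb (0.683, 0.550 to 0.845), whose 10 sites are all the Lifr sites above and within 1 cluster of neighbouring positions. Next came chromosome 7 from 10 to 15 Mb (0.726), with Sult2a1, Vmn1r77 and Zfp329, and chromosome 5 from 140 to 145 Mb (0.727), with Foxk1, Sdk1 and Chst12 among its genes. The highest were chromosome 18 from 35 to 40 Mb (1.49, 1.33 to 1.68), with Diap1, chromosome 15 from 70 to 75 Mb (1.46), with Ptk2, the focal adhesion kinase, and 4930572J05Rik, and chromosome 19 from 15 to 20 Mb (1.40), with Prune2 and Rorb. The 16 bins held a median of 5 separate clusters of sites, more than 100 bases apart, against 10 in the others. Of the 40 bins with at least 20 such clusters 0 passed, and they ran from 0.801 to 1.18. Of the 28 bins with at least 10 sites fixed in both lines 0 passed either, and they ran from 0.858 to 1.07 on the scale of those sites.

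**Figure D3:**
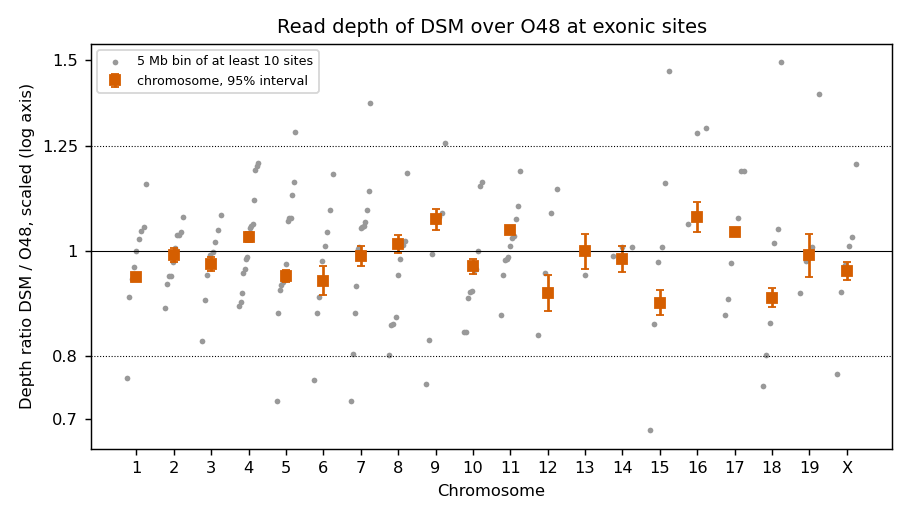
Depth of DSM over O48 scaled by total depth (y axis, log axis) by chromosome (x axis), squares with exact 95% intervals for chromosomes and points for 5 Mb bins, dotted lines at 0.8 and its inverse. Chromosomes 1 to 19 and X lie between 0.895 and 1.07, while bins reach from 0.683 to 1.49.

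The depth ratio moved with base composition. Over all compared sites it was 0.949 (0.940 to 0.957) where 40 to 45% of the site and the 100 bases on each side were G or C, 1.01 between 50 and 55%, and 1.09 (1.08 to 1.10) at 65% and above. Sites fixed in both lines, on the scale of their own summed reads, ran from 0.937 (0.917 to 0.957) between 35 and 40% to 1.07 (1.06 to 1.08) at 65% and above. The part of base composition in the single bins was measured only by the GC-corrected ratios, under which 17 of 153 bins passed.

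**Figure D4:**
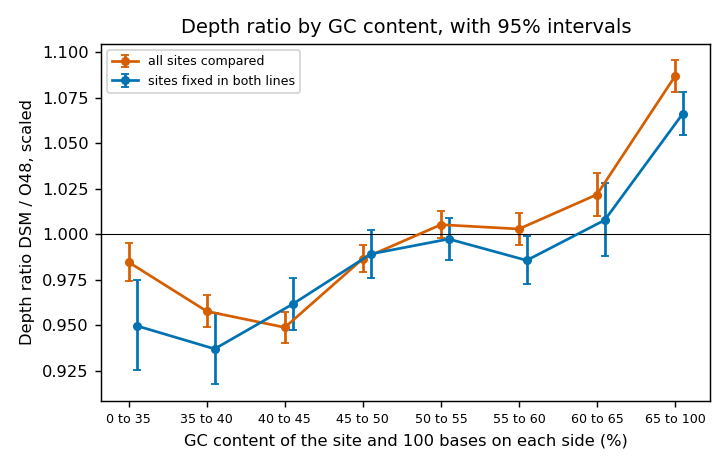
Depth of DSM over O48 scaled by total depth (y axis) by GC content of the site and 100 bases on each side (x axis, %), for all compared sites and for sites fixed in both lines, with exact 95% intervals. Both series lie below 1 under 50% and are highest, at 1.09 and 1.07, at 65% and above.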

How the data were processed

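Genomic DNA of O48 and DSM was sequenced by the authors, 1 library each. Per the labels and the submitters' processing notes, the tools named were CASAVA 1.8.2, BWA 0.7.12, SAMtools, Picard and GATK, and the build was mm10. The order and settings of these tools are not given in the sources used here. The deposited exonic table holds, per line, genotype, depth and read counts of each base, all raw counts, and a genotype quality score. The columns of the third line were not used here. Rows with a single-base Ref and Alt were kept, 1 per position with the effect of highest impact. All reference bases matched GRCm38.p6, which gave sequences, GC content and RefSeq annotation. Alternate share is Nalt/(Nref+Nalt), and at 242 sites that sum differed from DP in a line. Sites needed a depth of 10 in both lines. The two-sided Fisher's exact test (scipy 1.17.1, in Python 3.11.15 with pandas 2.3.3 and numpy 2.4.6; figures with matplotlib 3.10.9) was adjusted by Benjamini-Hochberg at 0.05, and the procedure was tested on simulated data. Intervals are exact Clopper-Pearson at 95%. At the median depths of 33 and 34 a count of 0 allows a share of up to 9.09% and 8.82%. PCR reads are not independent molecules, so intervals cover counting error only.

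The members, gene lists and thresholds were chosen with earlier results of these data known, and the genotype-quality, single-site and 64-read limits after seeing the data. Named, with examples only where a class is large and not every site under the rule reported here, were the targeted genes, all sites absent in one line and fixed in the other, called stop, start and splice sites, the 10 largest rises and falls with 1 per gene, genes with at least 3 called sites, genes of the 3 highest and 3 lowest bins, and the listed genes. The single mixed sites were chosen after their values were seen. Alternatives are given in the closing section. No guide sequence is printed.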

Additional observations from a re-analysis of the deposited data

How the results depend on the processing

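The 23 sites absent in O48 and fixed in DSM ranged from 21 to 24 under every alternative run, with 0 in the other direction, and the median change stayed at 0. The number of called sites (440) was 263 without sites over 3 times the median depth, 185 with one site per 100 bases, 107 with genotype quality of at least 20 in both lines, and 1348 when a change of at least 20 points replaced the test. Called percentages moved as follows: without the deepest sites to 2.67% of non-synonymous, 1.91% of synonymous and 3.64% of 3′ UTR sites; with one site per 100 bases to 2.10% of synonymous sites; with the quality minimum to 1.55%, 0.995% and 0.931%. The 4 called Dmpk sites became 1 with one site per 100 bases and 0 with the quality minimum. The 16 bins with a changed depth ratio became 4 at a depth of at least 20, 2 with one site per 100 bases, 5 with the quality minimum, 5 with at least 20 sites a bin and 0 at sites fixed in both lines. In settings that drop sites, depth ratios were scaled by the summed depth of the sites left, so their scales differ. Chromosome 15 moved to 0.974 without the deepest sites and 0.946 by the median of single sites. At its 3 sites fixed in both lines it was at 0.972 (0.724 to 1.31). Chromosome 16 moved to 1.01 with one site per 100 bases. At its 18 sites fixed in both lines it was at 0.964, with an interval of 0.855 to 1.09 that includes 1. The reads there were 552 in O48 and 559 in DSM, so the value below 1 comes with that scale. Quality minimum and sites fixed in both lines were chosen after seeing the data. The cause of these moves was not tested, beyond fewer sites entering. No paired analysis was possible because each line has 1 library. With 1 library a line, differences between cultures, clones and passages cannot be told from the edits. At about 33 reads a count of 0 allows a share of up to about 9.09%. At such depths a change had to be larger than that to be called. At Treml2, 9 of 25 reads in O48 against 0 of 24 in DSM gave an adjusted p of 0.0440 by Fisher's exact test over all sites.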
